A study of Homo sapiens with 24 samples.

Results

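The cytosolic ribosomal protein genes code for the proteins of the large (RPL) and small (RPS) ribosomal subunits, and they were followed here in human hepatoma cells treated with silymarin. Members were all protein-coding genes named RPL or RPS with a number and an optional A, L or X, together with RPLP0, RPLP1, RPLP2 and RPSA. Genes of kinases, pseudogenes and Y-linked genes were left out. A member also needed a probe set that the platform annotation pairs with its symbol alone, and the probe set with the highest mean was used. This gave 60 members among 18274 genes, 38 of the large and 22 of the small subunit. RefSeq lists 81 names of this form, and the other 21, among them RPLP0, RPSA, RPL11 and RPS27A, were not analysed here.

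The cells were Huh7.5.1, a derivative of the Huh7 hepatoma line that supports hepatitis C virus growth. They received silymarin, a flavonolignan extract of milk thistle seed, or its solvent DMSO, and every sample title carries the word novirus. Total RNA of each of 24 samples was read on its own array, the Affymetrix Human Gene 1.0 ST. DMSO and silymarin were represented by 4 and 4 arrays at 4 h, by 5 and 3 at 8 h and by 5 and 3 at 24 h. The labels do not give the dose or say that replicates came from separate cultures, so p-values measure only the spread between these samples, which may be technical. In total RNA from a culture, fewer cells of a type and less RNA per cell cannot be told apart.

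Values are log2 signals made by robust multi-array averaging (RMA), so a difference of 1 is a change of 2-fold. The median signal of an array lay between 7.04 and 7.18. Liver genes had high signals, with ALB, the gene of albumin, at a mean of 13.34 and AFP, the gene of alpha-fetoprotein, at 13.13, and 7 of 8 hepatocyte markers were measured. PTPRC, which marks leukocytes, had a mean of 4.33. The stress gene DDIT4, which restrains the growth kinase mTOR, stood apart on 10 of the 24 arrays, at 9.67 to 10.34, and lay at 7.50 to 8.35 on the other 14. This split did not follow the labels, since high values occurred on 6 DMSO and 4 silymarin arrays. Results are therefore also given from the 14 arrays with low DDIT4, with every array under its label. These are 2 DMSO and 3 silymarin arrays at 4 h, 2 and 1 at 8 h and 4 and 2 at 24 h.

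A ribosome needs nearly all of its proteins in equal numbers, and growing cells spend much of their transcription and translation on making them. The mRNAs of these proteins begin with a cytosine and an unbroken run of C and T directly at the cap, the terminal oligopyrimidine (TOP) tract. When mTOR is active such mRNAs are loaded onto ribosomes, and when it is inhibited they are held back with the help of the binding protein LARP1. Much of their known control therefore lies in translation, which arrays do not measure, since they report the amount of mRNA. Several ribosomal protein mRNAs serve as reference genes in quantitative PCR (qPCR).

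The starts of 49 members were found in RefSeq on the GRCh38.p14 build, and 11 had no entry in that table. A tract was counted where the annotated transcript start was a C followed by at least 4 further C or T, read on the transcript's strand. By this count 35 of 49 members (71.4%) had a tract, against 988 of 15843 protein-coding genes of the table (6.24%). Among genes with 1 listed start the shares were 72.1% of 43 members and 4.59% of 11786 genes. Mitochondrial ribosomal proteins, which make up the ribosomes inside mitochondria, had it in 6 of 69 (8.7%). The longest run of C and T that began within 10 bases of the start had a median of 11 bases in the members and 4 in all these genes. The sequences of 4 members with a small spread over the arrays show the tract in capitals, with 10 bases before the annotated start and 30 from it. They lie at chr19:48619149-48619188 (minus strand) for RPL18, chr17:74203668-74203707 (plus) for RPL38, chr3:197950180-197950219 (plus) for RPL35A and chr3:101686689-101686728 (minus) for RPL24.
RPL18: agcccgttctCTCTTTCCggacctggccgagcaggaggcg
RPL38: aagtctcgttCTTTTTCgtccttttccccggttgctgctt
RPL35A: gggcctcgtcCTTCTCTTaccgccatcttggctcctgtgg
RPL24: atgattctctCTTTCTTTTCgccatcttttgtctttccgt

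The next 4 starts belong to members that varied more over the arrays and also have the tract. They lie at chr1:6199566-6199605 (minus) for RPL22, chr17:8383164-8383203 (minus) for RPL26, chr10:78033853-78033892 (plus) for RPS24 and chr12:56116623-56116662 (plus) for RPL41. The run at the start was 14 bases long in RPS24, 12 in RPL26, 7 in RPL22 and 5 in RPL41.
RPL22: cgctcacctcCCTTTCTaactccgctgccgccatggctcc
RPL26: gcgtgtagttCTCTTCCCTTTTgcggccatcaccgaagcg
RPS24: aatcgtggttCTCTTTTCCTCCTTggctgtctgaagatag
RPL41: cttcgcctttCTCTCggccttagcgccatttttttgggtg

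A further 14 members had no tract at the annotated base, and 4 of them are printed, with no capitals because no run starts there. They are RPS28 at chr19:8321486-8321525 (plus), the steadiest gene of the table, and RPS27L at chr15:63157448-63157487 (minus), RPL10L at chr14:46651752-46651791 (minus) and RPL10A at chr6:35468391-35468430 (plus), which varied more. In RPS28 and RPL10A runs of 9 and 10 bases began within 10 bases of the annotated start. The longest run near the start of RPL10L was 4 bases and that of RPS27L was 3.
RPS28: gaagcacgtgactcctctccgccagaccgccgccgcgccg
RPS27L: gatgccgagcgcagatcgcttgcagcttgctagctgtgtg
RPL10L: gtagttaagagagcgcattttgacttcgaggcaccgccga
RPL10A: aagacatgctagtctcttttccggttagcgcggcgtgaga

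The spread of members with and without a tract was set side by side. The median SD over 24 arrays was 0.0668 for the 35 members with a tract and 0.0919 for the 14 without. Among members with a mean signal of at least 10 the medians were 0.0665 (33 members) and 0.0625 (10 members). No test was made of this difference.

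The ribosomal protein genes varied little over the whole series. Their median SD over the 24 arrays was 0.067 on the log2 scale, against 0.127 over all genes, and 51 of 60 lay under that median of all genes. Every member stayed within a range of 1, which is a change of 2-fold, and 49 of 60 stayed within 0.5. The median range was 0.280 in the members, 0.498 over all genes and 0.380 over genes with a mean of at least 10. Many other genes thus also stayed within 0.5, and the share of all genes within a range of 1 was not counted. Bright probe sets tend to vary less, so the members were also read against all genes in bands of signal. The sets of all genes include the members, which are 8 of the 35 genes at a mean of 13 or more. Among genes with a mean of at least 10, 51 members had a median SD of 0.0656 and all 3412 genes had 0.0978. The same order held at means of 10 to 12 (0.080 against 0.102), 12 to 13 (0.0601 against 0.0707) and 13 or more (0.0486 against 0.0615). For the 6 members with a mean under 8 it did not hold, with 0.137 against 0.132. The bands did not fully match the signal. At means of at least 10 the median signal was 12.43 for members and 10.79 for all genes, and at 10 to 12 it was 11.29 and 10.70. The part of signal in these gaps was not tested. Of the 100 genes with the smallest SD, 11 were members, and of the 1000 smallest 35 were members. These comparisons are descriptions and were not tested.

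**Figure D1:**
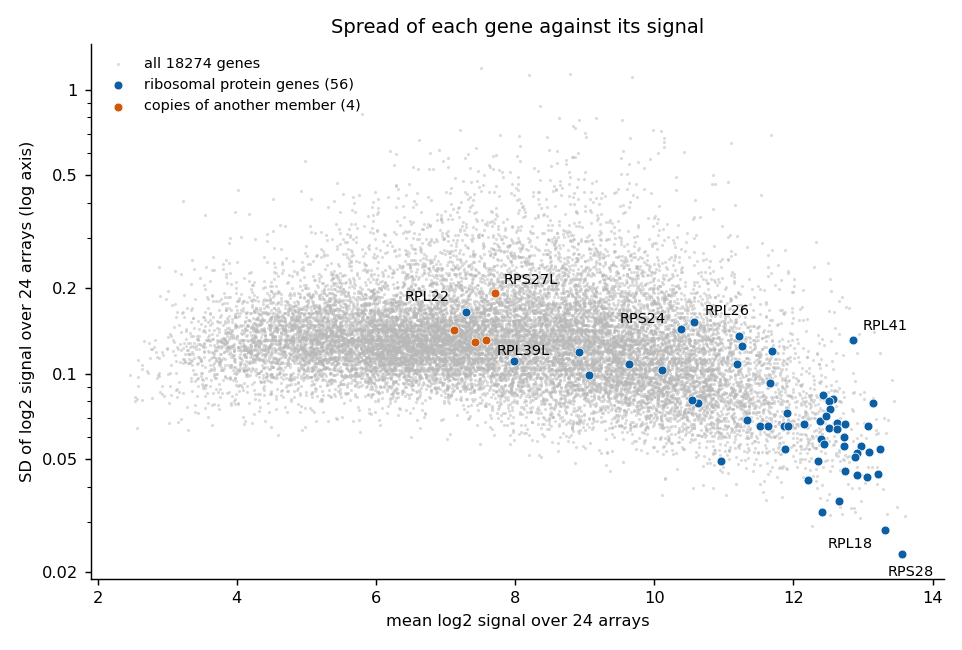
Each point is a gene, with its mean log2 signal over 24 arrays on the x axis and its SD over the 24 arrays on a log y axis. Grey points are all 18274 genes, blue points 56 ribosomal protein genes and orange points the 4 that are copies of another member. RPS28 lies lowest of all genes at 0.0231, and RPS27L is the highest member at 0.192.

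RPS28, a small-subunit protein near the exit of the mRNA channel, had the smallest SD of all 18274 genes, 0.0231. Its 24 values ran from 13.52 to 13.61 with a median of 13.56. The group means lay between 13.55 and 13.57, a range of the size of the SD within groups. RPL18, a large-subunit protein, was next of all genes, with an SD of 0.0282 and values from 13.26 to 13.37. RPL38, known for selective translation of patterning genes in the mouse embryo, had an SD of 0.0326 and values from 12.33 to 12.47. RPL35A, mutated in some patients with Diamond-Blackfan anaemia, had 0.0357 and RPL24 had 0.0421. The highest value of any probe set on the arrays was 13.96, not far above the signals of RPS28, and the median SD of all genes was smaller in brighter bands, as given above. The part of this in the rank of RPS28 was not tested.

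Of the 8 widest members, 4 had a mean signal under 8, and 3 of these 4 were copies of other members. RPS27L, a copy of RPS27 that p53 induces, had the largest SD, 0.192, with values from 7.32 to 8.13 and a median of 7.72. In silymarin at 24 h its 3 arrays read 7.37, 7.62 and 8.13, and the 5 DMSO arrays at that time read 7.61, 7.48, 7.72, 7.94 and 7.73. The silymarin arrays thus spanned the DMSO arrays on both sides. RPL22, whose loss the copy RPL22L1 can compensate, had an SD of 0.165 and values from 6.99 to 7.63. RPL26, which binds p53 mRNA, had an SD of 0.152 and values from 10.29 to 10.85. RPS24, another Diamond-Blackfan gene, had 0.144 and values from 10.17 to 10.78. RPL10L had 0.143, RPL10A 0.136, RPL41 0.132 and RPL39L 0.131. RPL41, the shortest ribosomal protein, was the only one of these 8 with a mean over 12, at 12.86, and its values ran from 12.59 to 13.11. This spread was not seen in another RPL41 probe set, not used, which had a mean of 9.04 and an SD of 0.0699.

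Members moved slightly together from array to array. For each array the deviation of every member from its own mean over 24 arrays was taken, and the median over the 60 members lay between -0.068 and 0.063. Medians of about this size also occurred over other genes, though not always on the same arrays. Over genes with a mean of at least 10 they lay between -0.0579 and 0.0399, both on silymarin arrays, and over all genes between -0.0202 and 0.0559. The arrays within a group differed in the members' median by a pooled SD of 0.0324. The DMSO arrays at 8 h spread most, with an SD of 0.0572. In that group replicates 1, 4 and 5 read 0.0634, 0.0504 and 0.0071, with 50, 47 and 35 of the 60 members above their own mean. Replicates 2 and 3 read -0.0435 and -0.0679, with 17 and 12 members above. Genes with a mean of at least 10 read -0.0098, -0.0439 and -0.015 in replicates 1, 4 and 5, and -0.0065 and -0.0446 in replicates 2 and 3. DDIT4 was 9.67, 10.28 and 10.11 in replicates 1, 4 and 5, and 7.86 and 7.50 in replicates 2 and 3. In DMSO at 4 h the 2 arrays with high DDIT4, replicates 1 and 4, read 0.0233 and 0.0252, and the others read -0.0075 and -0.0067. At 24 h DMSO replicate 3, with DDIT4 at 10.30, read 0.0151, and the other 4 read -0.0428, -0.055, 0.0086 and -0.0113. The silymarin arrays lay between -0.0135 and 0.0154, with DDIT4 on either side. The part of the DDIT4 split in these array medians was not tested.

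**Figure D2:**
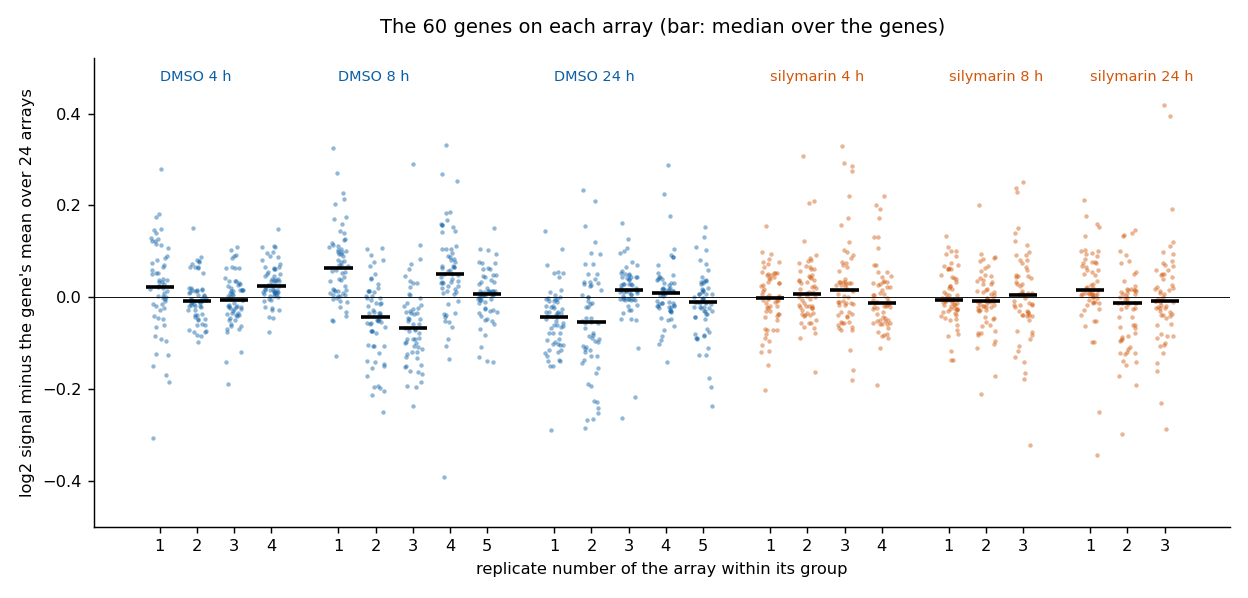
Each point is 1 of the 60 genes on 1 array, plotted as its log2 signal minus its mean over 24 arrays, with arrays ordered by group and replicate number on the x axis and a black bar for the median over the genes. The bars lie between -0.068 and 0.063, and the DMSO arrays at 8 h differ most from each other.

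At 4 h the differences between silymarin and DMSO were small. The median difference (silymarin minus DMSO) over the 60 members was -0.0029, against -0.0051 over all genes and 0.0138 over genes with a mean of at least 10. Of the members 28 (46.7%) lay above 0 and 32 below. Above 0 lay 47.5% of all genes and 61% of genes with a mean of at least 10. The lowest was RPL41 at -0.126 and the highest RPS27L at 0.135. limma, adjusted by Benjamini-Hochberg over all genes, called 0 of 60 members and 0% of all genes at an adjusted p under 0.05. At an unadjusted p under 0.05 it had 0 members, where 2.48% of all genes passed. The groups did not overlap in 3 members (5%), RPS21 above and RPL18 and RPS13 below, and in 2.18% of all genes.

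RPS21, a short small-subunit protein, read 9.11, 9.14, 9.28 and 9.17 in silymarin at 4 h and 9.10, 9.06, 9.10 and 9.08 in DMSO. All silymarin values lay above all DMSO values, but the nearest pair was only 0.005 apart. The means were 9.18 ± 0.0749 (SD, n = 4) and 9.09 ± 0.0211 (SD, n = 4), a difference of 0.0902 (SE 0.0611, limma's adjusted p = 0.99993). Without silymarin replicate 3 it was 0.0548. RPS13, a small-subunit protein used as a qPCR reference, read 13.14, 13.16, 13.13 and 13.07 in silymarin and 13.22, 13.16, 13.21 and 13.24 in DMSO. Its silymarin arrays all lay lower, with the nearest pair 0.0034 apart, both printed as 13.16. The difference was -0.0846 (SE 0.0631, limma's adjusted p = 0.99993).

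RPL18 read 13.30, 13.29, 13.28 and 13.26 in silymarin at 4 h and 13.30, 13.30, 13.34 and 13.34 in DMSO. The nearest pair was 0.0043 apart, and the means were 13.28 ± 0.0142 (SD, n = 4) and 13.32 ± 0.0215 (SD, n = 4). RPS14, lost in a myelodysplastic syndrome, differed by 0.0817 (SE 0.0567). RPS3, which also acts in DNA repair, differed by -0.067 (SE 0.0489), or by -0.0422 without silymarin replicate 1. RPL41 differed by -0.126 (SE 0.0886), with values of 12.76, 12.84, 12.75 and 12.79 in silymarin and 12.94, 12.82, 12.88 and 13.01 in DMSO. The RPL41 groups overlapped at DMSO replicate 2. All of these had limma's adjusted p = 0.99993. On the 14 arrays with low DDIT4 the differences were 0.116 for RPS21, -0.0687 for RPS13, -0.0541 for RPL41, -0.0205 for RPS3, 0.0476 for RPS14 and -0.0185 for RPL19, which was -0.0838 on all arrays and -0.0462 without silymarin replicate 1. The members' median was 0.0123 on these arrays.

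At 8 h the median difference over the members was -0.0098, against -0.018 over all genes and 0.0095 over genes with a mean of at least 10. Of the members 26 (43.3%) lay above 0 and 34 below. Above 0 lay 42% of all genes and 54.5% of genes with a mean of at least 10. The extremes were RPL39L at -0.168 and RPS27L at 0.123. limma called 0 members and 0% of genes. At an unadjusted p under 0.05 there was 1 member (1.67%), RPL39L, where 3.93% of all genes passed. The groups did not overlap in 1 member, RPL19, and in 2.93% of genes. On the low-DDIT4 arrays the members' median was 0.0376, but silymarin at 8 h was then 1 array, replicate 2, assumed to vary like the other groups.

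RPL39L is a copy of RPL39, a protein that lines the exit tunnel of the large subunit, and is mainly made in testis. Its 3 silymarin arrays at 8 h read 7.50, 7.37 and 7.25, and the 5 DMSO arrays read 7.58, 7.52, 7.38, 7.67 and 7.56. Silymarin was lower on average, and DMSO replicate 3 fell within the silymarin range. The means were 7.37 ± 0.125 (SD, n = 3) and 7.54 ± 0.105 (SD, n = 5), a difference of -0.168 with a 95% interval from -0.322 to -0.0133 (limma's unadjusted p = 0.0345, adjusted p = 0.9914). It was -0.107 without silymarin replicate 3 and -0.0836 on the low-DDIT4 arrays.

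RPL19, which joins the 2 subunits through a bridge and serves as a qPCR reference, read 11.11, 11.19 and 11.24 in silymarin at 8 h. In DMSO it read 11.25, 11.30, 11.31, 11.38 and 11.24. The groups came within 0.0034 of each other without overlapping. The difference was -0.116 (SE 0.0757, limma's adjusted p = 0.9914), or -0.111 on the low-DDIT4 arrays.

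RPL13 differed by -0.137 (SE 0.0899) at 8 h, with 11.12, 11.18 and 11.30 in silymarin and 11.49, 11.09, 11.18, 11.53 and 11.41 in DMSO, and by -0.09 without DMSO replicate 4. The 3 DMSO arrays with high DDIT4, replicates 1, 4 and 5, were the highest of the 8. The silymarin arrays did not follow this order. Those with high DDIT4, replicates 1 and 3, read 11.12 and 11.30, on both sides of replicate 2 at 11.18. On the low-DDIT4 arrays, 1 silymarin and 2 DMSO arrays, the sign turned, to 0.048. The part of DDIT4 in this was not tested. RPL32, also a qPCR reference, differed by 0.115 (SE 0.081), or by 0.0462 without silymarin replicate 2 and 0.187 without replicate 3. RPL14 differed by 0.0709 (SE 0.0541). RPL3L, a copy of RPL3 made in heart and skeletal muscle, differed by -0.102 (SE 0.0849), from -0.0203 without silymarin replicate 1 to -0.207 without replicate 3, and by -0.0617 without DMSO replicate 3. Each of these 4 had limma's adjusted p = 0.9914. From the low-DDIT4 arrays, with 1 silymarin array, RPL32 differed by 0.248, RPL14 by 0.0901 and RPL3L by -0.219.

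At 24 h the members' median was 0.0134 and that of all genes 0.0127, with 42 of 60 members (70%) and 56% of all genes above 0. Genes with a mean of at least 10, as 51 of the members have, lay the other way, with a median of -0.0112 and 42.9% above 0. Since members moved together from array to array, this count is not 60 independent observations. The lowest was again RPL39L, at -0.159, and the highest RPL13, at 0.125. limma called 0 members and 0% of genes, and at an unadjusted p under 0.05 there was 1 member (1.67%), RPL39L, against 3.03% of genes. The groups did not overlap in 2 members (3.33%), RPL37A above and RPL39L below, and in 1.95% of genes. On the low-DDIT4 arrays the members' median was -0.0004.

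RPL39L read 7.48, 7.45 and 7.57 in silymarin at 24 h and 7.65, 7.63, 7.74, 7.58 and 7.71 in DMSO. All 3 silymarin arrays were below all 5 DMSO arrays, the nearest by 0.0118. The means were 7.50 ± 0.0602 (SD, n = 3) and 7.66 ± 0.063 (SD, n = 5). The difference was -0.159 with a 95% interval from -0.314 to -0.0049 (limma's unadjusted p = 0.0437, adjusted p = 0.99971), and -0.129 on the low-DDIT4 arrays. At 4 h the groups had overlapped, with 7.61, 7.62, 7.85 and 7.57 in silymarin and 7.70, 7.66, 7.68 and 7.50 in DMSO. The difference at 4 h was 0.0256 (SE 0.0723).

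RPL37A, a zinc-binding large-subunit protein, read 10.64, 10.64 and 10.69 in silymarin at 24 h and 10.57, 10.63, 10.62, 10.56 and 10.59 in DMSO. Silymarin lay above the highest DMSO array by 0.0076. At 4 h its DMSO arrays had ranged from 10.45 to 10.82, wider than the gap at 24 h. RPS25, which some viral mRNAs need to start translation, differed by 0.0889 (SE 0.0567) and RPL13 by 0.125 (SE 0.0899) at 24 h. Without DMSO replicate 5 the RPL13 difference was 0.0823. RPL27A differed by 0.0747 (SE 0.058), and by 0.0491 without silymarin replicate 3. RPS29 differed by 0.107 (SE 0.0862), and by 0.0631 without silymarin replicate 1. RPS24 differed by 0.111 (SE 0.0934), and its silymarin replicate 3 read 10.78 while the others read 10.39 and 10.40. Without that array the RPS24 difference was -0.0159, without silymarin replicate 1 or 2 it was 0.178 or 0.173, and without DMSO replicate 1 it was 0.0667. All had limma's adjusted p = 0.99971. The low-DDIT4 arrays gave differences of 0.116 for RPS25, 0.135 for RPL13, 0.0882 for RPL27A, 0.1 for RPS29 and 0.173 for RPS24.

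**Figure D3:**
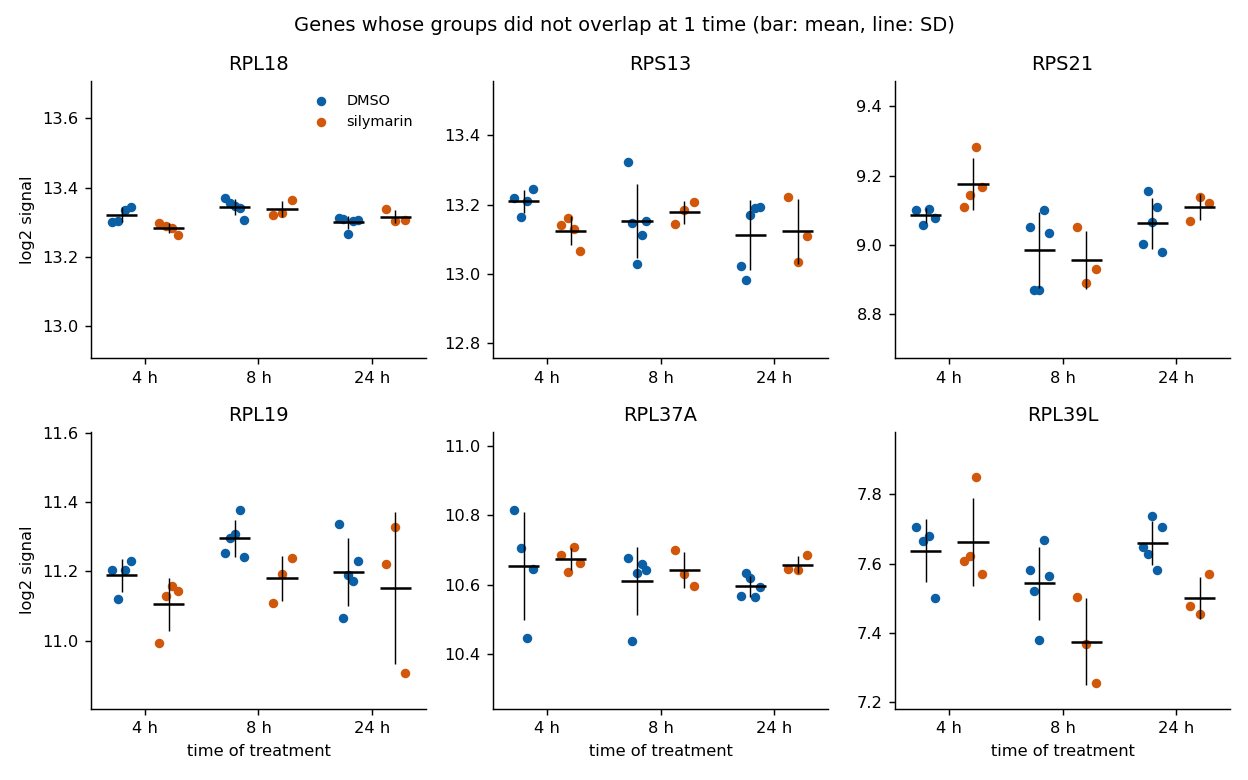
The log2 signal of the 6 genes whose silymarin and DMSO arrays did not overlap at 1 of the 3 times is plotted by time of treatment. Points are arrays, blue for DMSO and orange for silymarin, bars are means and vertical lines SDs, and every panel spans the same log2 width. The gaps are at 4 h for RPL18, RPS13 and RPS21, at 8 h for RPL19 and at 24 h for RPL37A and RPL39L.

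The intervals show which sizes of change these arrays leave room for. In each of the 3 comparisons the 95% interval of all 60 members lay within 0.5 of 0, a change of 1.41-fold either way. So did the intervals of 95.9%, 94.8% and 96% of all genes at 4, 8 and 24 h, so this is not particular to the members. Each interval holds for a single gene and comparison, was not adjusted for their number and covers only the spread between these samples. Within 0.25 lay 55, 50 and 53 members at 4, 8 and 24 h (91.7%, 83.3% and 88.3%). The shares for all genes were 55.5%, 49.2% and 51.3%, and for genes with a mean of at least 10 they were 76.7%, 66.4% and 73.6%. RPS27L had the widest interval, up to 0.399 at 4 h. The members that reached past 0.25 were RPS27L, RPL22, RPL41, RPL3L and RPS24 at 4 h. At 8 h they were RPS27L, RPL22, RPL26, RPL10L, RPL39L, RPL3L, RPL13, RPL7A, RPL19 and RPL32, and at 24 h RPS27L, RPL22, RPL26, RPS24, RPL39L, RPL13 and RPS29.

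**Figure D4:**
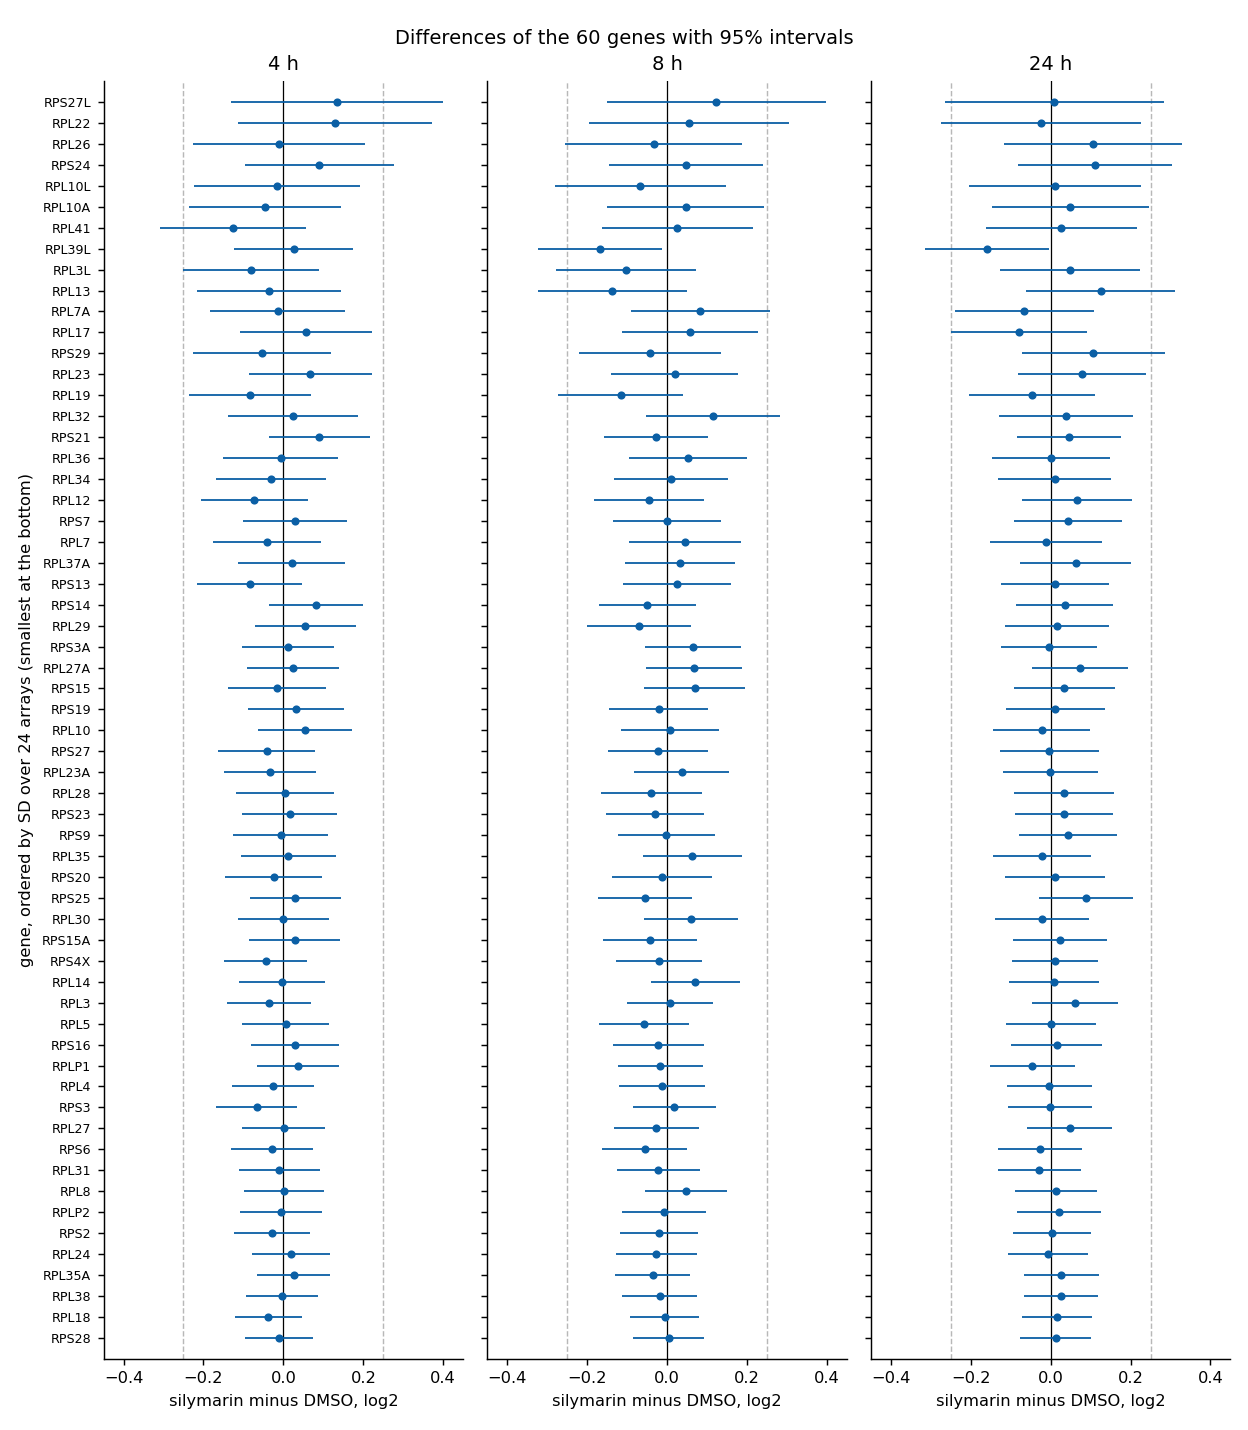
The difference silymarin minus DMSO on the log2 scale is plotted for each of the 60 genes at 4, 8 and 24 h, as a point with its 95% confidence interval from the limma fit. Genes are ordered by their SD over 24 arrays with the smallest at the bottom, and dashed lines mark 0.25 either way. All intervals lie within 0.5 of 0, as do those of most genes not plotted, and the widest belong to the genes at the top.

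Averaged over the 3 times, the members' median difference was 0.0035, that of all genes -0.0033 and that of genes with a mean of at least 10 0.004. Of the 60 members 36 (60%) lay above 0, as did 47.3% of all genes and 54.5% of genes with a mean of at least 10. limma called 0 members and 0% of genes. At an unadjusted p under 0.05 there was 1 member (1.67%), RPL39L, against 2.83% of genes. RPL39L differed by -0.101 (SE 0.0427, limma's adjusted p = 0.99986) and RPL19 by -0.0821 (SE 0.0433). The intervals of all 60 members lay within 0.25 of 0, as did 92.5% of all genes. On the low-DDIT4 arrays the members' median was 0.0221.

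The F-test over the 6 groups asked whether a member moved with treatment or time at all. limma called 0 members and 0% of genes after adjustment, and 2 members (3.33%) had an unadjusted p under 0.05, against 7.2% of genes. They were RPL39L (limma's unadjusted p = 0.00659) and RPS21 (0.0216), both with adjusted p = 0.674. RPS21 was lowest at 8 h, at 8.96 in silymarin and 8.99 in DMSO, and highest in silymarin at 4 h, at 9.18. The change of the silymarin difference between time points was also tested, and limma called 0 members and 0% of genes in each of the 3 such tests. At an unadjusted p under 0.05 there were 0 members, where 2.37% of genes passed between 4 and 8 h, 4.08% between 8 and 24 h and 3.02% between 4 and 24 h. The smallest unadjusted p of a member was 0.0508, for RPL13 from 8 h to 24 h, where its difference changed by 0.262 (SE 0.127, limma's adjusted p = 0.95027). For RPL39L the change was -0.193 (SE 0.104) from 4 h to 8 h, so its difference at 8 h was not shown to differ from that at 4 h.

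The DMSO arrays show how the members behaved over time in solvent. At 8 h against 4 h their median difference was -0.0025, with 27 (45%) above 0 and 33 below, while genes with a mean of at least 10 had a median of -0.0321. Above 0 lay 53.5% of all genes and 30.3% of genes with a mean of at least 10. limma called 0 members and 0% of genes, and 0 members had an unadjusted p under 0.05, against 6.5% of genes. RPL3L differed by 0.145 (SE 0.078), RPS21 by -0.1 (SE 0.0579), RPLP1 by 0.0776 (SE 0.0472) and RPL19 by 0.106 (SE 0.0696). None of these had limma's adjusted p under 0.739. With the low-DDIT4 arrays alone, only 2 at 8 h and 2 at 4 h, RPL3L differed by 0.218 and RPS21 by -0.213. RPLP1 differed by 0.0337 and RPL19 by 0.141, so RPLP1 was nearer to 0 and the other 3 were further from it. The members' median at 8 h depended on scaling and arrays, at -0.0374 with arrays re-centred to 1 median, 0.0317 with cyclic loess and -0.0508 on the low-DDIT4 arrays.

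At 24 h against 4 h in DMSO, 49 of 60 members lay below 0 and 11 above (18.3%), where 55.1% of all genes and 56.3% of genes with a mean of at least 10 lay above. The members' median was -0.0231, and the medians of those other sets were 0.0086 and 0.0085. limma called 0 members and 0% of genes, and 0 members had an unadjusted p under 0.05, against 1.7% of genes. RPL26 differed most, by -0.183 (SE 0.0985), and by -0.116 without DMSO replicate 1 at 4 h. Its 24 h arrays read 10.50, 10.29, 10.62, 10.43 and 10.51, and its 4 h arrays 10.85, 10.57, 10.51 and 10.68, which overlap. RPS4X, the X-linked small-subunit protein, differed by -0.0904 (SE 0.0477), RPS13 by -0.098 (SE 0.0598) and RPS3 by -0.0701 (SE 0.0464). All 4 had limma's adjusted p = 0.99992. With low-DDIT4 arrays alone RPL26 differed by -0.105, RPS4X by -0.0771, RPS13 by -0.0908 and RPS3 by -0.0531. The members' array medians had a mean of -0.0171 (SD 0.031, n = 5) at 24 h and 0.0086 (SD 0.0181, n = 4) at 4 h. They reached from -0.055 to 0.0151 at 24 h and from -0.0075 to 0.0252 at 4 h, which overlap. The shift of the set was not tested. The members' median difference was -0.0201 on the low-DDIT4 arrays.

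Both subunits had medians near 0. Large-subunit members had medians of -0.0029, 0.0008 and 0.0128 at 4, 8 and 24 h of silymarin, and small-subunit members 0.0023, -0.0202 and 0.0145. The median SD over 24 arrays was 0.0706 for the large and 0.066 for the small subunit. RPLP1 and RPLP2, the acidic stalk proteins that recruit elongation factors, differed by at most 0.0461 from DMSO, for RPLP1 at 24 h, and had SDs of 0.0529 and 0.0441. RPL5, which with RPL11 can hold MDM2 and so stabilise p53, had an SD of 0.0543. It differed by 0.0063, -0.0571 and 0.0009 at the 3 times.

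The 4 copies had a wider spread than most members, with a median SD of 0.137 against 0.0661 for the other 56. Their means lay from 7.12 (RPL10L) to 7.71 (RPS27L), where the median SD of all genes with a mean under 8 was 0.132. Their differences had no common direction. RPL39L was lower in silymarin at 8 h and 24 h, RPS27L differed by 0.135 and 0.123 at 4 h and 8 h and by 0.0097 at 24 h, and RPL10L, which the testis uses in place of RPL10, differed by -0.016, -0.0664 and 0.0119. Of the qPCR references among the members, RPL27 had an SD of 0.0494, RPS13 0.0791, RPL32 0.103 and RPL19 0.108. RPL27 differed by 0.0007, -0.0266 and 0.0481 at 4, 8 and 24 h.

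Of the 60 members, 21 had several probe sets with their symbol alone, 93 probe sets in all. The largest gap between probe sets of a gene was 0.147, for RPL41 at 4 h, with -0.126 and 0.0208. At 24 h a probe set of RPL13 that was not used differed by 0.186 and one of RPL27A by 0.163, against 0.125 and 0.0747 for those used, and both had limma's adjusted p = 1 over all probe sets. Other unused probe sets lay nearer to 0 than those used. At 24 h one of RPS25 differed by 0.03, against 0.0889 for the one used, and a further one of RPL27A by 0.029. At 8 h one of RPL13 differed by -0.0398, against -0.137 for the one used. The RPL41 probe set used had a second one with identical values. The 3 probe sets of RPS28 had SDs of 0.0231, 0.0239 and 0.0287. Ribosomal protein genes have many processed pseudogenes in the genome, and how far the probes also read these was not tested. A further 47 probe sets carry a ribosomal protein name beside other symbols and were not used.

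Other genes of the pathway were read from lists, for which limma called 0 members in each comparison. Of the TOP mRNAs that code for translation factors and related proteins, 19 of 20 were measured, with a median SD of 0.0786. EEF1G, a subunit of an elongation factor, was the steadiest at 0.0311, and HNRNPA1 the widest at 0.163. Their medians at 4, 8 and 24 h of silymarin were -0.0092, -0.021 and 0.0038. PABPC1, the poly(A) binding protein, differed by 0.0904 (SE 0.0515) at 8 h, EIF3K by 0.0737 (SE 0.057) at 4 h and EEF1B2 by 0.168 (SE 0.0981) at 24 h. In DMSO at 24 h against 4 h, 16 of these 19 lay below 0, with a median of -0.0594, and the ribosomal protein genes had 49 of 60 below 0. Both rest on the same arrays.

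The 73 mitochondrial ribosomal protein genes had a median SD of 0.0948. In silymarin their medians were 0.037, 0.0037 and 0.0077 at 4, 8 and 24 h, with 51, 39 and 42 of 73 above 0. The shares above 0 were 47.5%, 42% and 56% over all genes. Over genes with a mean of at least 10 they were 61%, 54.5% and 42.9%. In DMSO at 8 h against 4 h 59 of 73 lay below 0, with a median of -0.0604, where 30.3% of genes with a mean of at least 10 lay above 0, with a median of -0.0321. MRPL36 differed by -0.181 (SE 0.0837) at 4 h and 0.195 (SE 0.0865) at 24 h, and MRPS35 by 0.145 (SE 0.0605) at 8 h. None passed, with limma's adjusted p of 0.9914 or more.

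Of 5 measured genes outside the naming rule, RPL22L1, the partner copy of RPL22, differed most, by 0.261 (SE 0.0977, limma's unadjusted p = 0.0136, adjusted p = 0.99993) at 4 h. It also differed by 0.163 (SE 0.101) at 8 h and 0.0264 at 24 h. FAU, whose product includes a small-subunit protein, had an SD of 0.0824. Among the regulators, 12 of 13 were measured with a median SD of 0.0912. EIF4EBP1, a brake on cap-dependent translation, and MYC, a driver of ribosome production, were far wider than any ribosomal protein gene, at 0.353 and 0.351. They differed by 0.359 (SE 0.219) and 0.351 (SE 0.242) at 24 h. LARP1 had an SD of 0.0603 and differed by 0.0608, -0.047 and -0.0206. RPS6KB1, a kinase of the ribosomal protein S6, differed by -0.0922 (SE 0.0684) at 4 h, and MDM2 by -0.116 (SE 0.0818) at 8 h. Of the usual qPCR references 11 of 13 were measured, with a median SD of 0.0858. GAPDH was the steadiest at 0.0315 and HPRT1 the widest at 0.162, and PPIA differed by 0.215 (SE 0.0902) at 8 h.

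**Figure D5:**
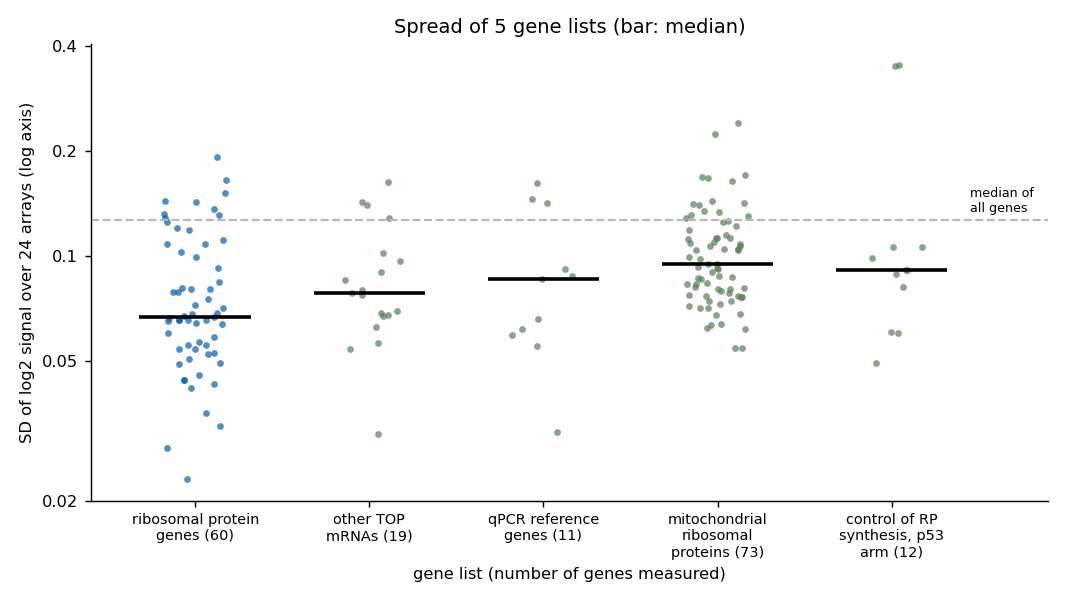
The SD over 24 arrays is plotted on a log axis for each gene of 5 lists, with a bar for the list's median and a dashed line for the median of all genes, 0.127. The medians are 0.067 for ribosomal protein genes, 0.0786 for other TOP mRNAs, 0.0858 for qPCR references, 0.0948 for mitochondrial ribosomal proteins and 0.0912 for the regulators and the p53 arm.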

How the data were processed

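Per the labels' protocols, Huh7.5.1 total RNA was labelled for the Affymetrix Human Gene 1.0 ST array. The authors deposited log2 values made with RMA and oligo, per the submitters' processing notes. Their versions and the genome build were not given in the sources used here. RMA includes quantile normalization, which removes any shift common to most genes. The table held 28869 probe sets, of which 19302 had 1 symbol, 1729 several and 7838 were not listed in the platform annotation. One limma model (limma 3.58.1, R 4.3.3) with 6 group means was fitted to 18274 genes on 24 arrays, with 18 residual and 5.04 prior degrees of freedom. P-values were two-sided and adjusted over all genes, with a threshold of 0.05. Alternatives were other scalings, no dim genes, averaged probe sets per gene, trend and robust settings, array weights, a replicate block, fits with only the groups compared, a stricter threshold and leaving out each array. The fit was tested on simulated data, drawn independently for each gene, with changes placed only in silymarin at 8 h. Such data lack the shared movements of genes from array to array, so this was a check of the code only. Figures used matplotlib 3.10.9.

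The members and lists were chosen with earlier results of these data known. Named members were the 6 with the smallest p at each time, the 6 with the largest F, the 8 with the largest and 5 with the smallest SD, 4 for each DMSO comparison, and the stalk, copy, RPL5 and qPCR genes. From each other list the genes with the smallest p were named. Other genes were named after their values were seen. Leaving out arrays with DDIT4 of 9 or more was chosen after seeing the data, as was reading the members with a mean of at least 10 alone.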

Additional observations from a re-analysis of the deposited data

Results flagged for a closer look

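In groups of 4 or 5 arrays, 1 array lay far from the others in 6 of 128 groups of named members examined, at Dixon's 95% critical value, and chance flags about 5% of groups. RPL22 in DMSO at 4 h read 6.99 in replicate 1, against 7.36 to 7.39 in the other 3. RPL38 in DMSO at 4 h read 12.47 in replicate 2, where the others read 12.40. RPL3L in DMSO at 8 h read 7.72 in replicate 3, against 7.49 to 7.54. RPLP1 and RPS29 were both high in DMSO replicate 4 at 8 h, at 13.18 against 13.09 to 13.11 and at 8.32 against 7.89 to 7.99. RPL18 in DMSO at 24 h read 13.27 in replicate 3, against 13.30 to 13.31. All 6 are DMSO arrays, and the 4 silymarin arrays at 4 h, the only silymarin group large enough to be examined, had none.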

How the results depend on the processing

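The number of arrays limits the precision, most for dim members such as RPS27L. The 26 differences of named members examined were picked for their small p on these same arrays, which the alternatives fit again. Kept signs are therefore no independent support for them. Under the alternatives 466 of 468 values kept their sign. The exceptions were RPS24 at 24 h and RPL13 at 8 h. RPS24 was -0.0159 without silymarin replicate 3 and up to 0.1777 without another array. RPL13 was 0.048 on the arrays with DDIT4 under 9, which leave 1 silymarin array at 8 h. The cause was not tested. No named member passed in these differences, and their smallest adjusted p was 0.4311. At 24 h 1 gene, RPE65, which is no ribosomal protein gene, was called after repeated quantile normalization and 1, the same, after cyclic loess. The members' median for DMSO at 8 h against 4 h was -0.0374 with re-centred arrays, 0.0317 with cyclic loess and -0.0508 on the low-DDIT4 arrays, where silymarin at 8 h gave 0.0376. Leaving out each array in turn, 0 genes were called for silymarin at each time, for its average, for DMSO over time and over the 6 groups, and the changes between times were not refitted. The members' medians then ranged from -0.0091 to 0.005 at 4 h, -0.0241 to 0.0093 at 8 h, -0.0057 to 0.027 at 24 h and -0.0024 to 0.0101 on average. They ranged from -0.0188 to 0.0133 for DMSO at 8 h and -0.0312 to -0.0194 at 24 h, and the median SD within groups from 0.0672 to 0.071. With dim genes left out 60 members and 11559 genes stayed.

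With the replicate number as a block, limma called 0 genes for silymarin at each time, for its average, for DMSO over time and over the 6 groups. Same-numbered arrays correlated at -0.137 to 0.426, with replicate 2 at 0.112, 0.426 and 0.422 at the 3 times. Several were near or below 0 and no label ties the numbers to a culture or day, so they were not treated as pairs.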
